A study of Mus musculus with 4 samples.

Results

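Broad peaks at gene ends are the subject: H3K27ac peaks of 5000 bp or more that reach within 1000 bp, before or after, of the annotated start or finish of a protein-coding gene (chromosomes 1 to 19 and X). There were 642 of them among 56285 deposited peaks, 56284 of which lay on these chromosomes. The members were selected on 2 values read from the list, the width and the position of each peak, so their widths and their place at gene ends are given as a description, with no test. H3K27ac, an acetylated lysine of histone H3, was mapped by ChIP-seq in Th17 cells, IL-17 secreting helper T cells, made from naive CD4+ T cells of C57BL/6 mice. The cells were held for 72 h with anti-CD3ε (0.25 µg/mL), anti-CD28 (1 µg/mL), TGF-β (0.1 ng/mL in the treatment label, 0.1 to 5.0 ng/mL in the growth text) and IL-6 (20 ng/mL). There were 2 biological replicates, each with 1 H3K27ac library and 1 input DNA library. The peak names carry the tag WT_Ddx5, which the labels do not explain, and no replicate. The list gives a position for each peak and no height, fold enrichment or value per library, so no value here has a replicate error and the sequencing depth is unknown. No test was run, since peaks and genes of 1 list are not replicates. The exact (Clopper-Pearson) 95% intervals cover the number of peaks or genes and nothing else.

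Acetylation of H3K27 is laid down by the acetyltransferases p300 and CBP and marks active promoters and enhancers. At most active promoters it covers the nucleosomes that flank the start. At a smaller set of genes it spreads as a broad stretch over the promoter and into the gene, and such stretches are known for genes that set a cell's identity and for genes induced strongly on activation. Promoters fall into CpG-rich ones, common among genes that every cell uses, and CpG-poor ones, common among genes of 1 cell type.

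The promoter sequences show how different the starts under broad peaks were. Printed are the 250 bases before a RefSeq start (GRCm38.p6, 5′ to 3′ on the strand of the gene), with each CpG in capitals. Ptprc, Satb1, Ikzf1 and Cd5 carry the widest members among genes whose RefSeq start lies within 1000 bp of the outer annotated start. Lcp2 and Themis, from the lists below, have the lowest CpG ratio among list genes with a member at the start.
Ptprc, chr1:138175306-138175555, minus strand: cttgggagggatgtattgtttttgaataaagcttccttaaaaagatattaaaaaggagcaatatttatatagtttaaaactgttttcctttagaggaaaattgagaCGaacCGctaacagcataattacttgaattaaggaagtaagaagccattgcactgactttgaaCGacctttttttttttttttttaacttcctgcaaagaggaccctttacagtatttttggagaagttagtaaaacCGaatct
Satb1, chr17:51833291-51833540, minus strand: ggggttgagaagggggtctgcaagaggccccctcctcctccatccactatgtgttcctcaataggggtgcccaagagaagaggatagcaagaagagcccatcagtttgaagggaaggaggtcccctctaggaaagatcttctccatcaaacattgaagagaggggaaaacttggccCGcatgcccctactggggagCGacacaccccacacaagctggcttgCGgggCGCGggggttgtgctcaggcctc
Ikzf1, chr11:11685675-11685924, plus strand: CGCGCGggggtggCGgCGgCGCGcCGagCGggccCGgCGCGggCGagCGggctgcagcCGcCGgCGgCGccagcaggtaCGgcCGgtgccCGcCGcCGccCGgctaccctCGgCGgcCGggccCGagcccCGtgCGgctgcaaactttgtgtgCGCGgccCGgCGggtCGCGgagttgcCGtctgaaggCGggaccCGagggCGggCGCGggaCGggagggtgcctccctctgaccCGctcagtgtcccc
Cd5, chr19:10738975-10739224, minus strand: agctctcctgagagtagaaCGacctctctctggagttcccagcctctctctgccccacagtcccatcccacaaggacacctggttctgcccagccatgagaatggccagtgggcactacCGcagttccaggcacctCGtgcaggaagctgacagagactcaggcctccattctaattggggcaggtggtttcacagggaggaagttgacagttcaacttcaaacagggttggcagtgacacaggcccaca
Lcp2, chr11:34046678-34046927, plus strand: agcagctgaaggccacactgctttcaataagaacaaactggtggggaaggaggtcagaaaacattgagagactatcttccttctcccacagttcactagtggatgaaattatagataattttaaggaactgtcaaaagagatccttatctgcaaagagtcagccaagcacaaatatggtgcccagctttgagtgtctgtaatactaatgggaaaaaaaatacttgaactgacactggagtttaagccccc
Themis, chr10:28668110-28668359, plus strand: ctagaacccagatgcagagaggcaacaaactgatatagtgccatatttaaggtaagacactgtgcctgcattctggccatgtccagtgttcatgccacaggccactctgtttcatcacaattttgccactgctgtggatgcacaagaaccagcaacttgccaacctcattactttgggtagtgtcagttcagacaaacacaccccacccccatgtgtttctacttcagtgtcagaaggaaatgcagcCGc
Ikzf1, which encodes the lymphoid transcription factor Ikaros, had 44 CpGs in these bases. Cd5, an inhibitory receptor gene of T cells, had 3, and Lcp2, which encodes the adaptor SLP-76, had 0. The peaks at these 3 starts were 28820, 26977 and 13907 bp wide, so CpG-rich and CpG-poor starts alike lay under broad peaks.

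Several members also covered microRNA genes: 10 members overlapped 14 of them. The overlap was not counted for other peaks, so this number has no background. Shown are mature microRNAs of 4 of these loci, chosen after the values were seen, because they are well studied in lymphocytes. They are from RefSeq (GRCm38.p6), with the seed (bases 2 to 8) in capitals.
mmu-miR-21a-5p: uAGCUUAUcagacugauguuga
mmu-miR-142a-5p: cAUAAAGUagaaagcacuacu
mmu-miR-142a-3p: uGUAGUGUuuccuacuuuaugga
mmu-miR-15b-5p: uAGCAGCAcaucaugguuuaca
mmu-miR-16-5p: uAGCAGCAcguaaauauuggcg
mmu-miR-132-3p: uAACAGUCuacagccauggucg
mmu-miR-212-3p: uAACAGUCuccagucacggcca
The microRNAs miR-15b-5p and miR-16-5p share the seed AGCAGCA, and miR-132-3p and miR-212-3p share the seed AACAGUC. Mir21a (chromosome 11, 86584067 to 86584158) lay in a member of 25338 bp that touched the ends of Vmp1 and Tubd1. Mir142 (chromosome 11, 87756864 to 87756927), a microRNA gene specific to blood cells, lay in a member of 15881 bp at Supt4a and Tspoap1. Mir132 and Mir212 lay in a member of 7610 bp at the tumour suppressor gene Hic1. Mir15b lay in a member of 6312 bp at Smc4 and Ift80, whose edge ran through Mir16-2.

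Members formed the tail of the width distribution. Widths ran from 5011 to 74290 bp with a median of 6988.5 bp (quartiles 5684 and 9649 bp), and the 12199 narrower gene-end peaks had a median of 1417 bp (quartiles 660 and 2155.5 bp). Members were 5.0% of the 12841 gene-end peaks and 1.14% of all peaks, and they held 8.63% of the acetylated length (5576695 bp). Of them, 371 were under 7500 bp, 120 were from 7500 to under 10000 bp, 128 were from 10000 to under 20000 bp and 23 were wider. A further 864 peaks were as broad but lay away from gene ends, with a median of 6533.5 bp. The 3 members nearest the threshold were at Lama3 and Ttc39c (5011 bp), Jade2 (5013 bp) and Cd200 (5023 bp). The nearest gene-end peaks below it were at Birc3 (4997 bp), Gm5544 (4991 bp) and Zcchc2 (4981 bp). The plot of widths has no break at 5000 bp.

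**Figure D1:**
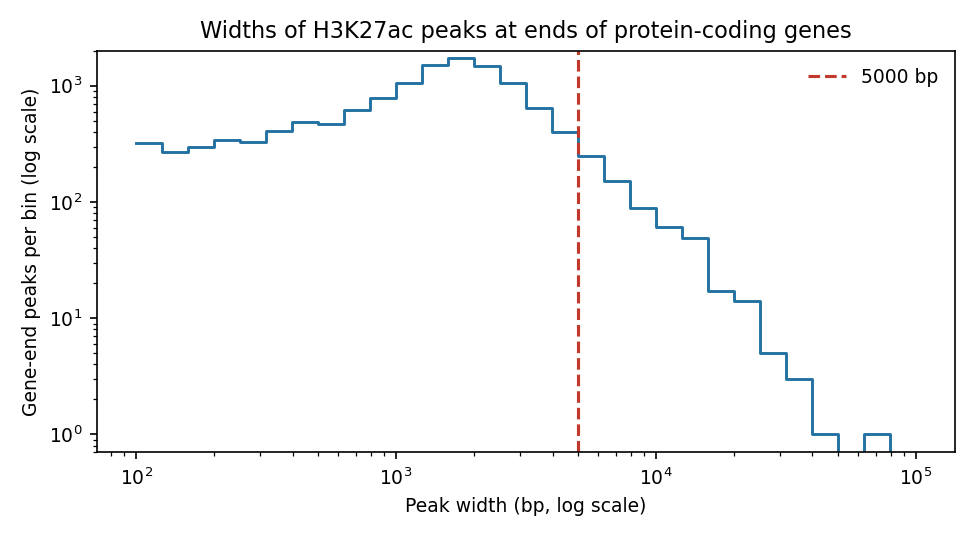
Number of gene-end peaks (log scale) against peak width in bp (log scale, bins of 0.1 in log10), with the threshold of 5000 bp dashed. The line falls through the threshold with no gap, and its tail ends at 74290 bp.

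The widest members lay at genes of several kinds. The widest of all (chromosome 14, 54164994 to 54239283) touched the finish of Dad1, a gene of protein glycosylation, but 3799 of its 74290 bp lay inside Dad1. Outside Dad1 it ran into the T cell receptor alpha locus, where it overlapped the constant region Trac, 46 joining segments and 5 joining segment pseudogenes. Next came Ptprc (49384 bp; chromosome 1, 138128096 to 138177479), which encodes the phosphatase CD45 that keeps the kinase Lck active. Ptpn1, another tyrosine phosphatase gene, had 36677 bp (chromosome 2, 167930530 to 167967206). The costimulatory receptor gene Cd28 had 35873 bp (chromosome 1, 60744551 to 60780423), a peak that ran over the whole gene. Satb1, a chromatin organiser of thymocytes, had 34910 bp and Ikzf1 28820 bp. A member of 29271 bp touched 1 end of Tg, the thyroglobulin gene, and 10004 bp of it lay inside Tg. The lymphocyte adaptor gene Sla lies within the annotated span of Tg. Among the 20 widest were also Stk17b (25383 bp), a kinase gene of lymphocytes, and Gpr15 (24213 bp), a homing receptor gene. Cytip had 2 members, of 25103 bp at its start and 22196 bp at its finish. The glycosyltransferase gene B3gnt2 (23755 bp) and Aebp2 (22192 bp), which encodes a partner of Polycomb complexes, had members at their starts.

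Most members lay at a start. The promoter table gives the strand of 17274 of 21631 protein-coding genes, and for 493 members the strand of each gene touched was known. Of these, 356 (72.2%) touched starts, 41 (8.32%, exact interval 6.03 to 11.1%) touched finishes, and 96 (19.5%) touched both kinds of end. A start was touched by 452 of the 493, or 91.7% (exact interval 88.9 to 94.0%). Counted by genes, 545 of 17274 with a known strand (3.16%) had a member at the start. Among narrower gene-end peaks of 1000 bp and wider, 5900 of 6233 (94.7%, 94.1 to 95.2%) touched a start, and 9.19% touched both kinds of end. Among narrower gene-end peaks of any width, 8513 of 9626 (88.4%, 87.8 to 89.1%) touched a start, so the members lay between these values. A wider peak can reach more windows by its width alone.

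From the outer annotated start, members reached mainly into the gene. For 314 members the only end touched was 1 start, and 300 of them (95.5%) crossed it, while 13 lay wholly downstream and 1 wholly upstream. The 300 reached a median of 5164 bp downstream (quartiles 3917 and 7378 bp) and 1540 bp upstream (quartiles 870 and 2945 bp). In 254 of them (84.7%, exact interval 80.1 to 88.6%) the downstream arm was the longer. The same held for 85.3% (84.2 to 86.4%) of 4096 narrower peaks of at least 1000 bp, whose medians were 1205 bp downstream and 613.5 bp upstream. The share of members with a longer downstream arm was thus close to that of the narrower peaks, and their intervals overlapped. The downstream part made up a median of 80.2% of the width in members and 66.2% in the narrower peaks. These values depend on the measure. Arms were taken from the outer annotated start, so any other start of a gene could lie only downstream. Peaks that reached an end window of a neighbouring gene were left out, which can remove long upstream arms, and wider peaks more often. Among members, 159 reached at least 5000 bp downstream and 25 at least 5000 bp upstream.

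**Figure D2:**
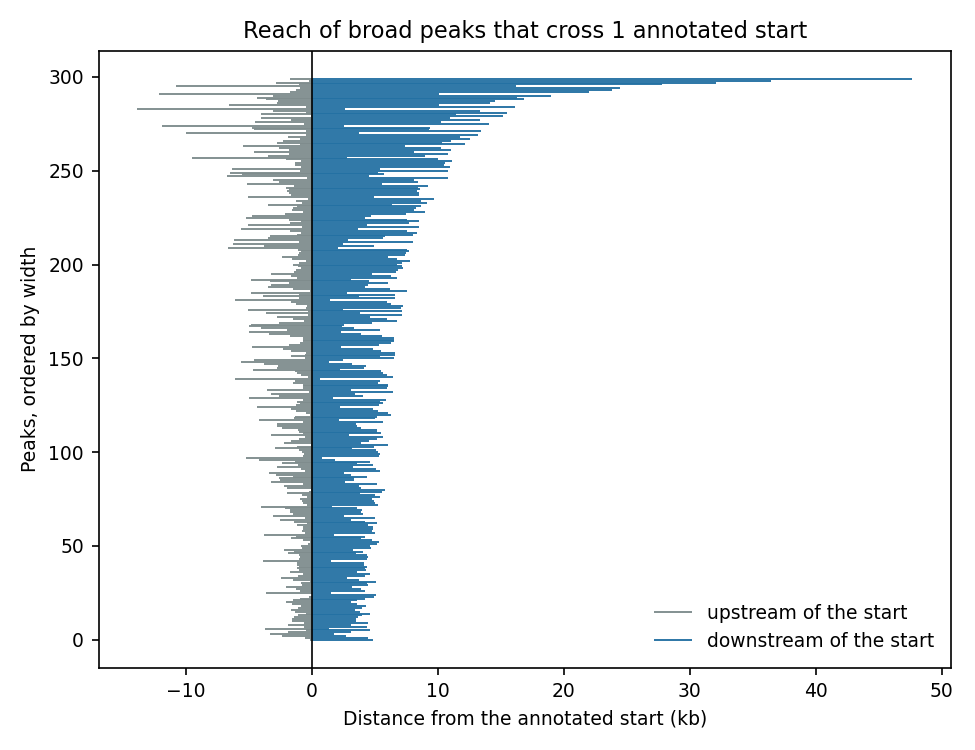
Reach of the 300 broad peaks that cross exactly 1 annotated start, in kb from the start (negative is upstream), 1 line per peak, ordered by width from the bottom. Grey is upstream and blue is downstream. The downstream arms are the longer ones in 254 peaks.

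Among these 300 members the longest downstream arms were those of Ptprc (47660 bp), Ptpn1 (36456 bp), Satb1 (32060 bp), Ikzf1 (27771 bp) and Stk17b (24445 bp). Their upstream arms were 1723, 220, 2849, 1048 and 937 bp. The genes of these 5 are 29726 to 112898 bp long. Their arms could end only inside the gene, since peaks that also touched a finish were left out of this set. The longest upstream arms were those of Irf2bpl (13857 bp upstream, 2616 bp downstream), Aebp2 (12122 and 10069 bp), Thap12 (11897 and 2575 bp), Cd5 (10768 and 16208 bp) and Gfi1 (9985 and 3713 bp). Gfi1 encodes a transcriptional repressor of lymphocytes. In 4 of these 5 peaks, all but that of Cd5, the upstream arm was the longer.

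**Figure D3:**
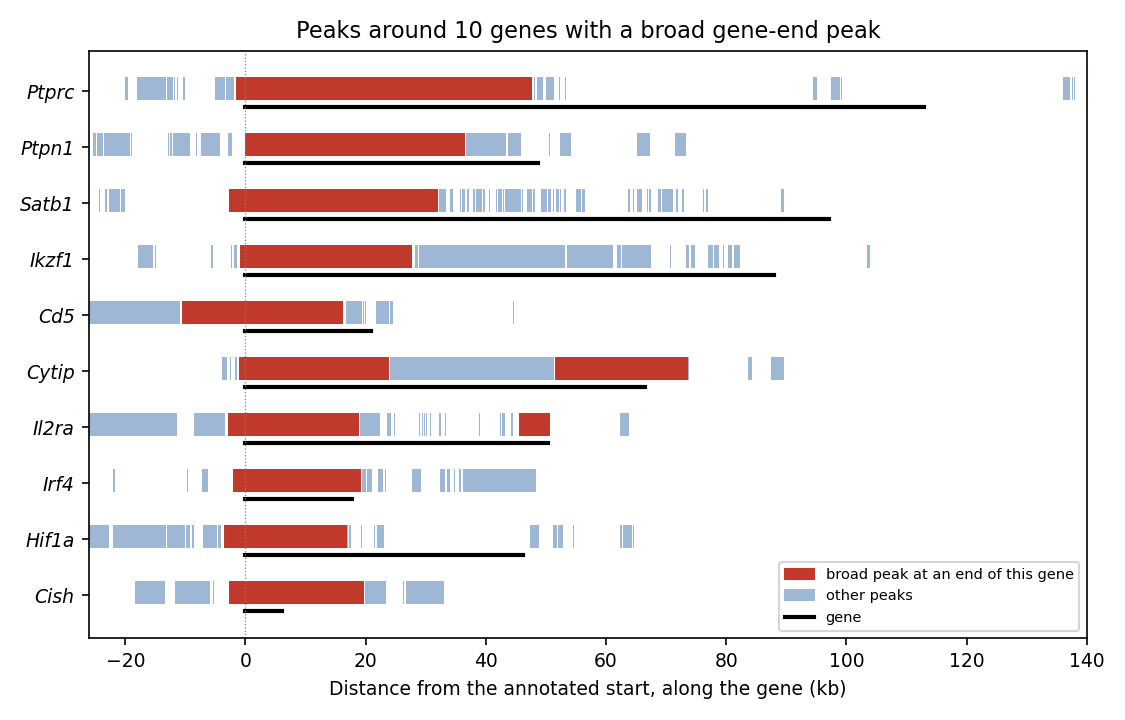
Peaks around 10 genes, in kb from the annotated start along the gene, from 25 kb before to 25 kb after each gene. Red bars are broad peaks at an end of the gene, blue bars are other peaks, and the black line is the gene. White lines mark the edges of peaks of 5000 bp or more, since gaps of about 100 bp are too small to see. In Ptprc, Ptpn1, Satb1 and Ikzf1 the red peak runs from the start into the gene, and Cytip and Il2ra have a red peak at each end.

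Some members covered whole genes. The peaks of 71 members ran over the full length of 75 protein-coding genes, and 110 genes had both ends touched by a single member. Cish, an inhibitor induced by STAT5, is 6126 bp long and lay in a member of 22618 bp. Irf4, a transcription factor needed for Th17 cells, lay in a member of 21392 bp. Junb, which encodes an AP-1 subunit, is 1840 bp long and lay in a member of 18722 bp (chromosome 8, 84972430 to 84991151) that also touched Prdx2 and Hook2. The cytokine genes Ltb, Tnf and Lta, which are neighbours, lay in 1 member of 14732 bp (chromosome 17, 35192791 to 35207522).

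Most members belonged to 1 gene. The end windows of 1 gene were touched by 499 members (77.7%), those of 2 genes by 127, and those of 3 or more by 16. The 1 member with 4 genes was a peak of 12382 bp at Slc25a11, Rnf167, the profilin gene Pfn1 and Eno3. Members of 3 genes were at Junb, at the tumour necrosis factor cluster, at the receptor gene Tnfrsf25 with Plekhg5 and Espn (16999 bp), and at the exonuclease gene Trex1 with Shisa5 and Atrip (12983 bp), the widest among them. In all, members reached 771 protein-coding genes. These genes had a median length of 20477 bp, close to the 21874 bp of the 10866 genes with narrower gene-end peaks, while the 9994 genes with no gene-end peak had 11605.5 bp.

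The 41 members at a finish were placed outside genes to a larger part. A median of 42.1% of their width lay in protein-coding genes, against 82.8% for the 356 members at starts, and 12 of the 41 had under 10% inside. The finish of Il17a, which encodes the signature cytokine of these cells, had a member of 7909 bp (chromosome 1, 20734354 to 20742262), 1.81% of it inside the gene. Finishes of Pim1 (7992 bp, 2.18% inside), a cytokine-induced kinase gene that had a further member over its start, and of the cell cycle inhibitor gene Cdkn1b (5959 bp, 4.35%) were like it. In contrast, the finish peak of the IL-6 receptor gene Il6ra had 13786 bp with 92.6% inside. That of Batf, an AP-1 factor needed for Th17 cells, had 6818 bp, all inside.

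Genes that define T cells or carry their receptor signal had the highest share among the 19 lists, with 21 of 28 (75%, exact interval 55.1 to 89.3%) reached by a member. Over all protein-coding genes this share was 3.56% (771 of 21631), and it was 6.63% among the 11637 genes with a gene-end peak of any width. The lists and the members were chosen with results of these data known, and the rule used the same peaks, so the shares describe the members and test nothing. The receptor genes Cd28, Cd5, Cd6 (18679 bp) and Cd2, which tune the strength of the T cell signal, had members from 17121 to 35873 bp. That of Cd6 (chromosome 19, 10772609 to 10791287) lay mostly outside the gene, whose annotated span is 10789339 to 10830062 with the strand unknown. Lck (10987 bp) and Zap70 (10426 bp), the kinases that start the signal, had members at their starts. The coreceptor gene Cd4 had 9436 bp, and Cd3d and Cd3g shared a member of 10251 bp. The transcription factor genes Bcl11b (17239 bp), Runx1 (14930 bp), Lef1 (11873 bp) and Tcf7 (5910 bp), which set the T lineage, were reached too. The 7 without a member all had narrower gene-end peaks, from 2403 bp at Ets1 and 2417 bp at Cd247 to 4702 bp at Cd3e. When the midpoint of the peak, in place of any part of it, had to lie in the window, 0 of the 28 and 0.911% of all genes were reached, so at these genes the middle of each broad peak lay more than 1000 bp from the ends.

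**Figure D4:**
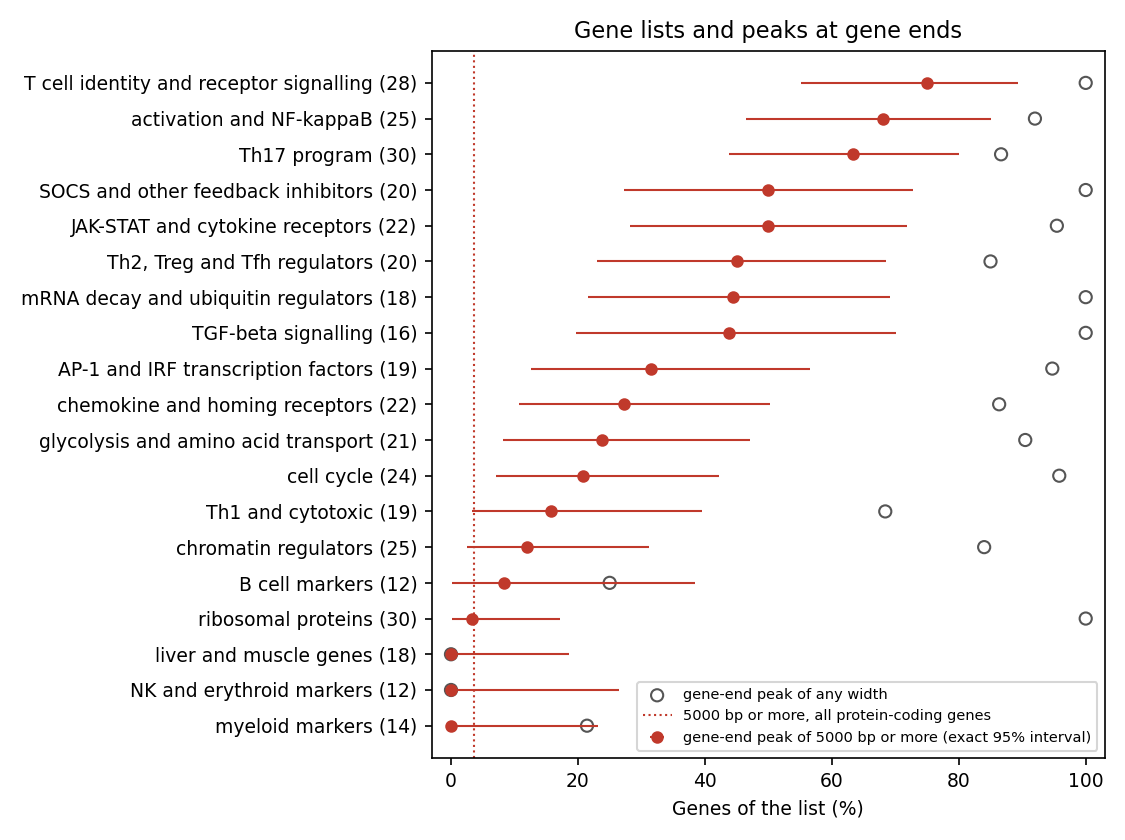
Share of the genes of each list (number of genes in brackets) with a gene-end peak of any width (open circles) and of 5000 bp or more (red points, bars are exact 95% intervals). The dotted line marks the share over all protein-coding genes, 3.56%. T cell identity genes stand at 75%, while all 30 ribosomal protein genes have a gene-end peak and 1 of them a broad one.

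Of 30 genes of the Th17 program, 19 (63.3%, exact interval 43.9 to 80.1%) had a member. Among cytokines these were Il21 (13570 bp at its start), Il17a, Il17f (5670 bp at its start) and Il24 (5156 bp). Among receptors they were Il6ra and the chemokine receptor gene Ccr6 (12508 bp). Among regulators Irf4, Hif1a (20509 bp), which encodes the hypoxia factor that supports glycolysis, and Junb had members of 18722 bp or more. Bhlhe40 had 14566 bp, Fosl2 11299 bp, Stat3 11036 bp, Maf 7148 bp and Ahr 5115 bp. The 11 without a member included Ccl20, Csf2, Il10 and Il1r1, with gene-end peaks of 725, 2461, 745 and 142 bp, and Il23r, whose widest gene-end peak of 4949 bp fell just short. Rora, Il22, Il9 and Sgk1 had no gene-end peak. Only the outer annotated ends of a gene were scanned, so peaks at starts inside a gene were not counted. The annotated spans of Rora (734843 bp) and Sgk1 (117720 bp) are long, so no lack of acetylation at their promoters can be read from this.

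Lists named for other helper T cells had members at some of their genes. Whether another helper program was active was not tested, and a member at a listed gene does not show it. Among 19 genes of Th1 and cytotoxic cells, 3 (15.8%, exact interval 3.38 to 39.6%) had a member: Il12rb1 (8542 bp), Cxcr3 (8523 bp) and Il12rb2 (6641 bp), a receptor chain pair for IL-12 and a chemokine receptor. Ccl5, Cd8a and Eomes were without one, Ifng had no gene-end peak, and Tbx21, the Th1 regulator, had a gene-end peak of 3241 bp. Of 20 Th2, Treg and Tfh genes 9 (45%) had one, led by the IL-2 receptor chain gene Il2ra (22053 bp), Cd200 (21030 bp), the inhibitory receptor genes Ctla4 (15202 bp) and Pdcd1 (15013 bp), Nfil3 (12916 bp) and Bcl6 (11201 bp). Gata3 and Foxp3, the Th2 and Treg regulators, were not among them. Gata3 had a gene-end peak of 813 bp and Foxp3 had none. The widest gene-end peaks of the cytokine genes Il13 and Il4 were 245 and 151 bp, and Il5 had none.

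The activation and NF-κB list had 17 of 25 (68%), led by Lta and Tnf in their shared member, Traf1 (14132 bp), the survival gene Mcl1 (13008 bp), Bcl3 (12895 bp) and Tnfrsf4 (11410 bp), while Bcl2l1, Icam1, Nfatc2 and Nfkb2 were without one. With a minimum of 7500 bp this count was 10, while the share over all genes went from 3.56% to 1.51%. In the JAK-STAT and cytokine receptor list 11 of 22 (50%) had a member, led by Il7r (16665 bp), Il6ra, Stat3, Il4ra (10944 bp), Stat6 (10786 bp) and Il21r (9060 bp). Ifnar1, Ifngr1, Il10ra and Il2rg did not, and the count at 7500 bp was 7. The Stat6 member (chromosome 10, 127660591 to 127671376) touched only the finish of Stat6, at 127660987. It lay mostly outside Stat6 and ran over the start of Nab2, at 127666703. Stat5a and Stat5b, the neighbouring genes of the IL-2 signal, shared a member of 5989 bp. Of 19 AP-1 and IRF genes, 6 (31.6%) had one. Besides Irf4, Junb and Fosl2 these were Batf3 (7670 bp), Jund (7468 bp) and Batf, and the inducible genes Atf3 (4896 bp) and Jun (4796 bp) fell just short.

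Feedback inhibitors were reached at 10 of 20 genes (50%, exact interval 27.2 to 72.8%). They were Cish, the MAP kinase phosphatase genes Dusp4 (15285 bp), Dusp5 (13377 bp), Dusp2 (8806 bp) and Dusp6 (6069 bp), Ptpn22 (15283 bp), a phosphatase that restrains the T cell receptor, Socs1 (10295 bp), Socs3 (8781 bp), which blocks the IL-6 signal to STAT3, Spry1 (6828 bp) and Ptpn2 (5610 bp). All 20 had a gene-end peak. Among TGF-β genes 7 of 16 (43.8%) had a member, led by the inhibitors Smad7 (9498 bp), Ski (9318 bp) and Skil (8363 bp), then Furin (8214 bp), Tgif1 (8052 bp) and the receptor gene Tgfbr2 (7652 bp). The ligand genes Tgfb1 and Tgfb3 had narrower gene-end peaks. Genes of mRNA decay and ubiquitin had 8 of 18 (44.4%), with Zc3h12d (20608 bp), Peli1 (14725 bp), Tnip1 (13039 bp), Zfp36 (12908 bp), Zfp36l1 (10705 bp) and Tnfaip3 (9968 bp) at the top.

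Lists of housekeeping and growth genes had smaller shares than the T cell identity and Th17 lists. The Th1 and cytotoxic share of 15.8% was below those of the cell cycle list (20.8%) and the glycolysis and transport list (23.8%). All 30 ribosomal protein genes had a gene-end peak, with a median of 2982.5 bp for the widest at each gene. Of them 1 (3.33%, exact interval 0.084 to 17.2%) had a member, a share near the 3.56% of all protein-coding genes. It was Rpl18 (6059 bp), which shared the peak with Sphk2 and Fam83e. When peaks at most 1000 bp apart were merged, this count was 11 of 30, against 6.82% of all genes. Chromatin regulators had 3 of 25 (Arid1a with 8084 bp, Brd2 with 6791 bp, Kat2b with 5066 bp), cell cycle genes 5 of 24, led by Ccnd2 (13058 bp), E2f2 (9197 bp) and Cdkn1a (7733 bp), and glycolysis and amino acid transport 5 of 21, led by Pkm (9051 bp), Eno1 (8509 bp) and Hk2 (7571 bp). Merging gave 6, 9 and 10 genes in these 3 lists. Chemokine and homing receptors had 6 of 22, led by Ccr7 (14274 bp), which guides T cells to lymph nodes, and 11 with merged peaks. The median of the widest gene-end peak was 10601.5 bp over the T cell identity genes, 7528.5 bp over the 26 Th17 genes with a gene-end peak, 2713 bp over the chromatin genes, 2786 bp over the cell cycle genes, 4296 bp over the glycolysis and transport genes and 1822 bp over all 11637 genes with one.

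Markers of other cells had few gene-end peaks of any width. Of 14 myeloid, 12 NK and erythroid, and 18 liver and muscle genes, 0 had a member, and gene-end peaks of any width were at 3, 0 and 0 of them, against 53.8% of all protein-coding genes. The counts of 0 are not apart from the 3.56% of all genes with a broad peak, since their exact intervals reach up to 23.2%, 26.5% and 18.5%. The 3 myeloid genes were Xcr1 (3430 bp), Cd68 (2917 bp) and Cd14 (1295 bp). Of 12 B cell genes, 1 had a member: the peak of 6758 bp (chromosome 7, 24901822 to 24908579) began 36 bp before the finish of Cd79a and ran on over Arhgef1.

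CpG content at broad starts spanned both kinds of promoter. For each protein-coding gene with a RefSeq start within 1000 bp of its outer annotated start, the 300 bases around it (250 before, 50 after) were scored for CpGs found over those expected from the C and G content. Under members at the start (465 genes) the median ratio was 0.77 (quartiles 0.49 and 0.92), under narrower peaks of at least 1000 bp 0.82 (0.66 and 0.94), and at starts with no peak 0.23 (0.11 and 0.45). A ratio of 0.6 or more, a usual mark of CpG islands, was found at 318 of the 465 starts (68.4%, exact interval 63.9 to 72.6%), at 81.9% (80.9 to 82.8%) of the 6426 starts with such a narrower peak, at 16.2% of 7123 starts without a peak and at 49.6% of all 15534. The interval of the members lay below that of these narrower peaks. At the 1520 starts whose widest peak was under 1000 bp, the median was 0.70 and the share 63.9% (61.4 to 66.3%), an interval that overlapped that of the members, so the share did not follow peak width in 1 direction. Within the members the median ratio was 0.79 at widths under 6000 bp, 0.80 from 6000 to under 7500 bp, 0.76 from 7500 to under 10000 bp and 0.62 (quartiles 0.28 and 0.87) at the 104 starts with peaks of 10000 bp or more. The lowest median was thus that of the widest peaks, and 59.4% of the starts had a ratio of 0.6 or more with a minimum of 7500 bp.

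**Figure D5:**
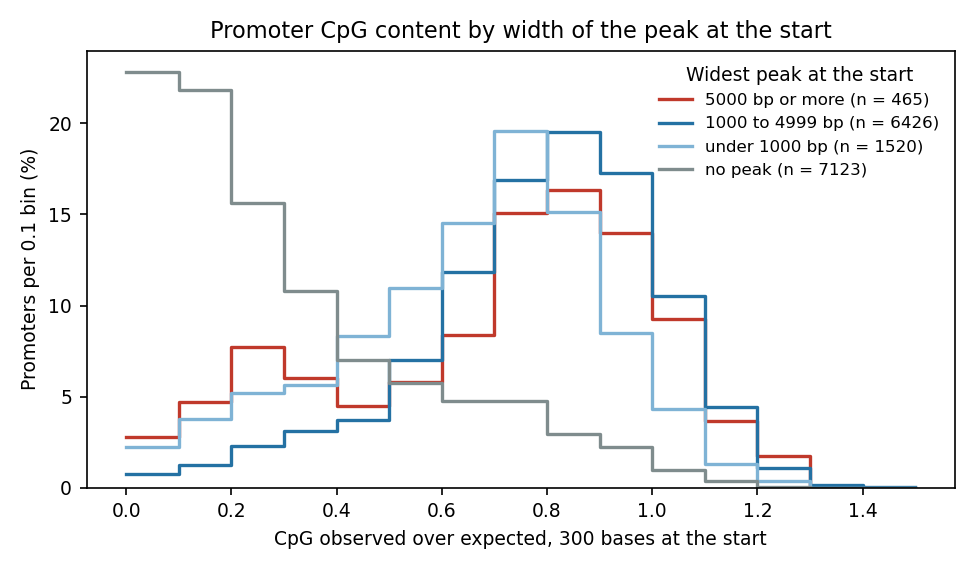
Share of promoters in bins of 0.1 of the CpG observed over expected ratio, by the widest peak at the start. The red line (5000 bp or more, n = 465) has its main mode above 0.6, as has the class of narrower peaks of at least 1000 bp, and a lower one between 0.2 and 0.3, where starts without a peak (grey) are common.

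The gene lists differed in this measure. Of 16 T cell identity genes with a broad start and a promoter entry, 12 were below 0.6, among them Cd3d, Cd3g, Lck, Zap70, Satb1 and Ptprc, and 4 (Bcl11b, Plcg1, Tcf7 and Ikzf1) were above. Their median was 0.30, and it was 0.31 over all 21 genes of that list with an entry, whatever the peak. Of 11 Th17 genes 7 were below 0.6, among them Ccr6, Il21, Irf4 and Stat3, and Junb, Il6ra, Rel and Fosl2 were above. Feedback inhibitors had 6 of 7 above 0.6 (Socs1, Socs3, Dusp2, Dusp5, Dusp6 and Spry1), with Cish below, and a median of 0.77. Of the mRNA decay and ubiquitin genes 6 of 8 were above. Whatever the peak, 11 of 13 feedback inhibitors with an entry (median 0.84) and 12 of 14 mRNA decay and ubiquitin genes (median 0.82) were above. Of all 20 Th17 genes with an entry 6 were above, with a median of 0.35.

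Short motifs were counted on both strands of the same 300 bases. Searched were TATAAA (the TATA box), GGGCGG (the GC box), CCGGAAG (ETS factors), TGANTCA (AP-1), TTCNNNGAA (STAT factors), TGTGGT (RUNX factors), CCAAT (NF-Y) and CACGTG (E-box). No motif of these holds another, and hits can overlap. GGGCGG was in 65.6% of the 465 starts under members and in 47.4% of all 15534, and TATAAA in 8.17% and 13.8%. Under narrower peaks of at least 1000 bp GGGCGG was in 68.6% and TATAAA in 6.15%. Under peaks of less than 1000 bp these shares were 65.3% and 8.09%. At the 7123 starts without a peak they were 23.2% and 22.2%. For both motifs the members were thus close to other starts with a peak and differed from starts without one. CCGGAAG was in 14.8% (exact interval 11.7 to 18.4%) of starts under members, 12.2% of all starts and 23.1% (22.1 to 24.2%) of starts under narrower peaks of at least 1000 bp. Under peaks of less than 1000 bp it was in 9.74% (8.29 to 11.3%), so the share under members lay between those of the narrower classes. TGANTCA was in 4.30% of starts under members and 7.06% of all, TTCNNNGAA in 7.96% and 7.91%, and TGTGGT in 15.1% and 14.7%. CCAAT was in 32.3% and 39.8%, and CACGTG in 8.17% and 8.11%. Under narrower peaks of at least 1000 bp and under peaks of less than 1000 bp, TGANTCA was in 4.20% and 5.07%, close to the members. Without a peak it was in 10.2%. In the same narrower classes TTCNNNGAA was in 6.83% and 5.99%, and TGTGGT in 11.5% and 13.9%. There CCAAT was in 39.6% and 42.0%, and CACGTG in 11.0% and 10.3%. Such matches describe the letters in this window and show no binding.

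Members often had another peak close by. The nearest peak began within 1000 bp of 443 members (69.0%), of 42.5% of the narrower gene-end peaks and of 80.7% of the broad peaks away from ends. Median gaps were 286.5, 2761 and 170.5 bp. A stretch can thus be listed as several peaks, and the width of a member depends on where the list breaks it. Merging peaks at most 1000 bp apart raised the number of broad gene-end peaks from 642 to 1144 and the genes reached from 771 to 1475.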

How the data were processed

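H3K27ac and input DNA libraries of 2 replicates of cultured Th17 cells were reduced by the authors to 1 deposited list of peak positions, with no score per peak. The submitters' processing notes name MACS2 2.2.6, SAMtools 1.9, Bowtie2 2.3.4.1 and deepTools, with the build GRCm38 (mm10), and give no roles. Per the design text of the series, peaks were called against the input DNA of each replicate. The peak threshold and whether replicates were pooled are not stated in the labels or the list. Peak starts were read as 0-based, since 787 peaks then have the smallest width, exactly 100 bp. They are printed 1-based.

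The 21631 protein-coding genes were those of RefSeq on GRCm38.p6. Strand and promoter sequences, for 17274 of them, were from RefSeq promoters of the same build. Overlaps of at least 1 bp were counted with Python 3.11.15, numpy 2.4.6, pandas 2.3.3 and scipy 1.17.1, and drawn with matplotlib 3.10.9. The overlap code was tested on simulated peaks. The members and the 19 lists, with 377 genes that each had an entry in the gene table, were chosen with earlier results of these data known. Named are genes at the 20 widest members, up to 6 genes per list with the widest members and up to 4 in alphabetical order without, members nearest the threshold, members of most genes, and those reaching farthest from a start. A few genes that this rule names are not reported here. All other names, such as the finish examples, were chosen after their values were seen. Alternatives were widths of 4000 and 7500 bp, windows of 500 and 2500 bp, the midpoint, merging, and starts alone. In an alternative added after seeing the data, members with known strand were counted at any start of the promoter table, and 89.0% touched one. The CpG ratio was not scored at other starts. In all other counts only the outer annotated ends of a gene were scanned. A gene without a gene-end peak or member can thus have a peak at a start inside it.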

Additional observations from a re-analysis of the deposited data

How the results depend on the processing

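The counts of the lists depend on how peaks are counted. The midpoint setting took the T cell identity list from 21 genes to 0, so it no longer led. Merging took the ribosomal list from 1 to 11 of 30 genes, while the T cell identity list, with 22 of 28, kept the highest share. With a minimum of 4000 bp there were 1035 members (1.84% of peaks, 11.3% of length) and 1248 genes (5.77% of all genes). The lists then gave 10 of 21 glycolysis and transport, 3 of 30 ribosomal, 5 of 25 chromatin and 2 of 12 B cell genes. With 7500 bp there were 271 (0.481%, 5.19%) and 326 genes (1.51% of all genes), and 59.4% of starts had a CpG ratio of 0.6 or more. At this minimum the lists gave 10 activation, 7 JAK-STAT, 3 glycolysis, 3 cell cycle, 0 ribosomal, 1 chromatin and 0 B cell genes. Windows of 500 and 2500 bp gave 8.48% and 9.03% of the length. The wider window gave 1 of 12 NK and erythroid genes, beside 3.88% of all genes. With the midpoint in the window there were 183 members (0.325%, 2.003%) and 197 genes (0.911% of all genes), 76.6% at a start, 67.0% longer downstream and 76.9% with a CpG ratio of 0.6 or more. The midpoint gave 0 T cell identity, 3 Th17, 3 Th2, Treg and Tfh, 6 activation, 2 AP-1 and IRF, 3 JAK-STAT, 5 feedback, 0 TGF-β, 1 mRNA decay, 2 chemokine, 0 glycolysis, 1 cell cycle, 0 ribosomal, 0 chromatin and 0 B cell genes. Merged peaks gave 1144 members (3.28%, 16.4%) and 1475 genes (6.82% of all genes), with 11 chemokine, 10 glycolysis, 9 cell cycle, 11 ribosomal, 6 chromatin and 2 B cell genes. Starts alone gave 3 chemokine, 3 cell cycle and 0 B cell genes. In that setting a gene of unknown strand counted as not reached. Ccr7, Itgal and S1pr1 of the chemokine list and Ccnd2 of the cell cycle list dropped out in this way. Cdkn1b and Cd79a dropped out because their member was at the finish. Each alternative changes by construction which peaks can be counted.

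No paired analysis was possible because the list holds no value per replicate. For the same reason no replicate was left out, and no stricter peak score was applied. Depth is unknown, so a missing or narrow peak cannot be told apart from one under the detection limit.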

Other observations

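Of the genes reached, 31 had more than 1 member, and at 28 genes separate members touched both ends. Among these 28 were the cytokine receptor genes Il2ra, Il4ra and Il6ra, the activation marker gene Cd69, the surface receptor genes Cd6 and Cd200, the cell cycle gene Ccnd3, and Batf. They were named after their values were seen.

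Members overlapped noncoding genes in 173 cases, of which 144 included a long noncoding RNA gene, and 7 members overlapped no protein-coding gene at all. These overlaps were not counted for other peaks, and a wider peak can meet more genes by its width alone. The counts thus set nothing apart in the members. By chromosome, the share of gene-end peaks that were broad ran from 2.59% (11 of 425, exact interval 1.30 to 4.58%) on chromosome 14 to 6.85% (44 of 642, 5.02 to 9.09%) on chromosome 6. Chromosome 14 also held the widest member.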
